A study of Mus musculus with 16 samples.

Results

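The genes described here are 45 genes of DNA replication and S phase, chosen by name as a list of gene symbols and matched to the 53801 Ensembl genes of one count table, in which each symbol had 1 identifier. They were followed in 16 RNA-seq libraries from the cortex and striatum of 9 mice at postnatal day 10. Mice with the histone acetyltransferase cofactor Trrap deleted from forebrain neurons (Trrap-FBΔ) were compared with control mice. The control mice were Trrap Fl/+ and carried Camk2-Cre tg, and the Trrap-FBΔ mice were Trrap Fl/Fl and carried Camk2-Cre tg, all of the mixed strain C57BL6/J-129sv and 10 days old. Both groups therefore carried the Cre transgene, and the controls also had 1 floxed Trrap allele. The Camk2a promoter drives the Cre in glutamatergic neurons of the forebrain, so that other neurons, glia and vessel cells of the same tissue piece were not meant to lose Trrap. The methods give an ERT2-fused line for this transgene, a form of Cre that acts once an inducer is given, and the sources used here name no inducer for these mice. Each tissue gave 4 control and 4 Trrap-FBΔ libraries. The control cortex came from mice 55, 58, 63 and 64, the control striatum from mice 58, 63, 64 and 65, and both Trrap-FBΔ tissues from mice 57, 59, 60 and 61. The sexes were not balanced, with 2 females and 2 males in the control cortex, 1 female and 3 males in the control striatum, and 3 females and 1 male in each Trrap-FBΔ group. Below, values of single libraries always stand in the order of these mouse numbers.

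DNA replication starts at origins, where the origin recognition complex, Cdc6 and Cdt1 load the ring of the Mcm2 to Mcm7 proteins onto DNA before S phase. Cdc45 and the GINS complex then turn the loaded ring into the active helicase. The polymerases, the sliding clamp Pcna and its loader copy both strands while enzymes of nucleotide synthesis supply the building blocks. Transcription of many of these genes is switched on at the border of G1 and S phase by E2F factors, which the Rb family of pocket proteins holds in check. In the forebrain at this age most neurons no longer divide, whereas glial precursors and cells of the subventricular zone still do. Several of the proteins also serve DNA repair in cells that do not divide.

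All 45 genes were detected in every library and passed the filter on low counts in every comparison. The libraries held 28743866 to 48761429 reads on genes, with a median of 41482110, and the lowest count of any of the genes in a library was 14, for Orc1. Levels are given as CPM, the count scaled to the size of the library, on one TMM scale over all libraries, and fold changes are Trrap-FBΔ over control on the log2 scale, with the standard error (SE). Adjusted p-values come from the edgeR quasi-likelihood test with Benjamini-Hochberg adjustment over all genes tested in that comparison, and a gene was called where this value was under 0.05. Nothing in the labels says that the mice came from separate litters or extractions, so that p-values measure the spread between these mice.

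The reads did not set the genotypes apart at Trrap itself. Its level in the control cortex was 173, 156, 136 and 147 CPM and in the Trrap-FBΔ cortex 121, 137, 135 and 146 CPM. The groups overlapped through control mouse 63, with a log2 fold change of -0.18 ± 0.075 (SE, n = 4 and 4, edgeR adjusted p = 0.083). In the striatum Trrap stood at 151, 140, 150 and 142 CPM in controls and at 148, 135, 145 and 138 CPM in Trrap-FBΔ mice, a log2 fold change of -0.04 ± 0.048 (edgeR adjusted p = 0.52). The counts cover the whole gene and do not single out the floxed exons. In these libraries the direction of every comparison therefore rests on the labels. The study itself reported an efficient deletion of Trrap in Trrap-FBΔ brains at this age, from western blots and qPCR. As a check of the tissues, 10 markers of excitatory cortical neurons summed to 3616 to 4415 CPM in the control cortex and to 1201 to 1905 CPM in the control striatum. In contrast, 10 markers of striatal projection neurons summed to 494 to 1003 CPM in the cortex and to 332 to 1388 CPM in the striatum, with 1 gene higher and 1 lower in the striatum by the edgeR test, so these markers did not set the striatal libraries apart.

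Per kilobase of exon, the levels of the 45 genes in the controls spread from 0.165 CPM per kb for Orc1 to 15.0 for Orc6 in the cortex, and from 0.168 to 13.6 for the same 2 genes in the striatum. Orc6, a subunit of the origin recognition complex, and Gins4, a subunit of GINS, had the highest levels per kb in both tissues. They were at 15.0 and 14.0 CPM per kb in the cortex and at 13.6 and 12.8 in the striatum. Next came Dut, which removes dUTP from the nucleotide pool, with 12.1 and 12.2 CPM per kb, and the maintenance DNA methyltransferase gene Dnmt1 with 11.2 and 10.7. At the other end, above Orc1, stood Cdc6 with 0.257 and 0.246 CPM per kb, the thymidine kinase gene Tk1 with 0.30 and 0.369, and the helicase factor gene Mcm10 with 0.314 and 0.307. Subunits of 1 complex were thus not at 1 level. Gins2 was at 0.43 and Gins4 at 14.0 CPM per kb in the same cortical libraries.

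**Figure D1:**
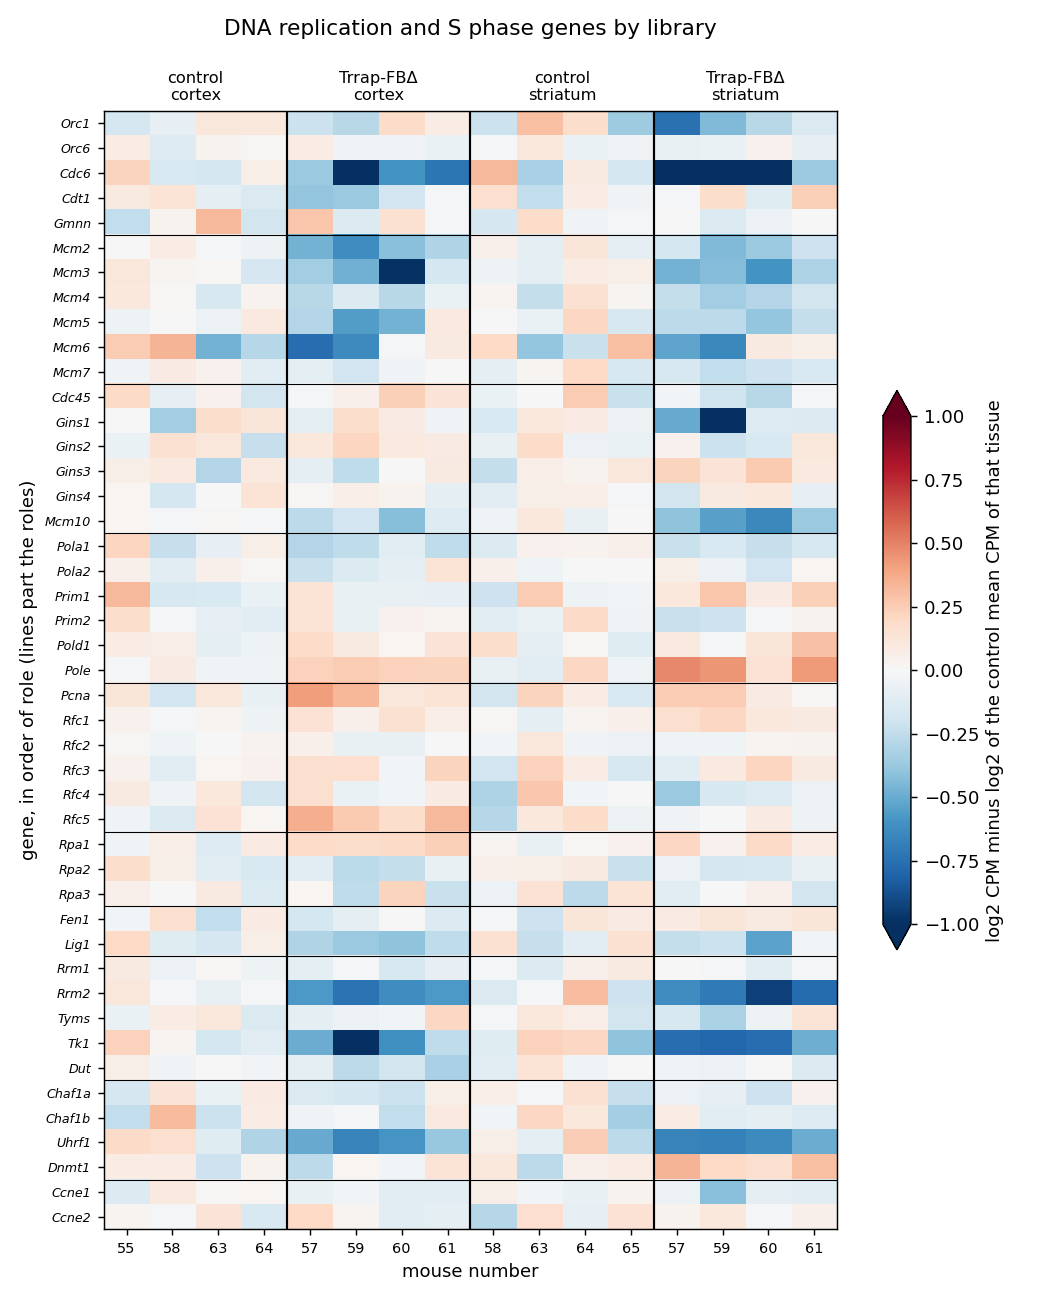
Heat map of the 45 genes (rows, in order of role) in the 16 libraries (columns, by group and mouse number). The colour gives log2 CPM minus the log2 of the control mean of that tissue. The rows of Cdc6, Mcm2, Mcm3, Rrm2, Tk1 and Uhrf1 are blue across both Trrap-FBΔ groups, and most other rows stay pale.

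In the cortex 11 of the 45 genes (24.4%) differed between the genotypes, beside 33.3% of the 18268 genes tested. Cdc6, Mcm2, Mcm3, Lig1, Rrm2, Tk1, Dut and Uhrf1 fell, which is 8 of 45 genes where 17.6% of all genes fell, and Pole, Rfc5 and Rpa1 rose, which is 3 of 45 where 15.7% of all genes rose. In the striatum 11 of 45 (24.4%) differed as well, beside 30.2% of 18872 genes. There Cdc6, Mcm2, Mcm3, Mcm4, Mcm5, Mcm10, Rrm2, Tk1 and Uhrf1 fell, 9 genes beside 15.8% of all genes, and Pole and Dnmt1 rose, 2 genes beside 14.4% of all genes. The share of the 45 genes that differed was thus below that of all genes in both tissues. Their median log2 fold change was -0.05 (cortex) and -0.06 (striatum), with 0.001 and -0.006 over all genes tested. The control and Trrap-FBΔ libraries did not overlap for 13 of the 45 genes in the cortex, beside 32.7% of all genes, and for 12 in the striatum, beside 31.6%. The number called depended on single libraries, since it was 7 in the cortex without Trrap-FBΔ mouse 59, and in the striatum 7 without mouse 57, 6 without mouse 59 and 7 without mouse 61. With sex as a covariate 6 genes were called in the striatum, namely Mcm3, Mcm10, Rrm2, Tk1, Uhrf1 and Dnmt1.

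The ranges of the summed level of the 45 genes overlapped between the genotypes, with 570 to 617 CPM in the control cortex, 567 to 596 CPM in the Trrap-FBΔ cortex, 577 to 605 CPM in the control striatum and 581 to 603 CPM in the Trrap-FBΔ striatum. Abundant genes weigh most in this sum, such as Dnmt1, Rpa1 and Rfc1 with means of 83.0, 46.6 and 46.2 CPM in the control cortex. Cdc6, Mcm2, Mcm3, Rrm2, Tk1 and Uhrf1, which fell in both tissues, were at 1.34 to 9.07 CPM there. The sum therefore says little about these 6 genes. For 20 genes of mitosis the ranges of the sum did not overlap, since it was 136 to 159 CPM in control and 89.5 to 97.1 CPM in Trrap-FBΔ cortex, and 153 to 192 CPM and 99.0 to 113 CPM in the striatum. In the cortex 16 of these 20 genes fell and in the striatum 17, and none rose. The median log2 fold change was -0.61 and -0.69. Top2a, the topoisomerase that untangles sister chromatids, fell by 0.90 and 0.88 on the log2 scale (edgeR adjusted p = 1.5e-05 and 0.00033). The proliferation marker gene Mki67 fell by 0.91 and 0.84 (edgeR adjusted p = 2.8e-05 and 0.00078). Nusap1, Cenpf and Tpx2, which act at the mitotic spindle and kinetochore, fell by 0.49 to 0.99 in the cortex and by 0.67 to 0.85 in the striatum.

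**Figure D2:**
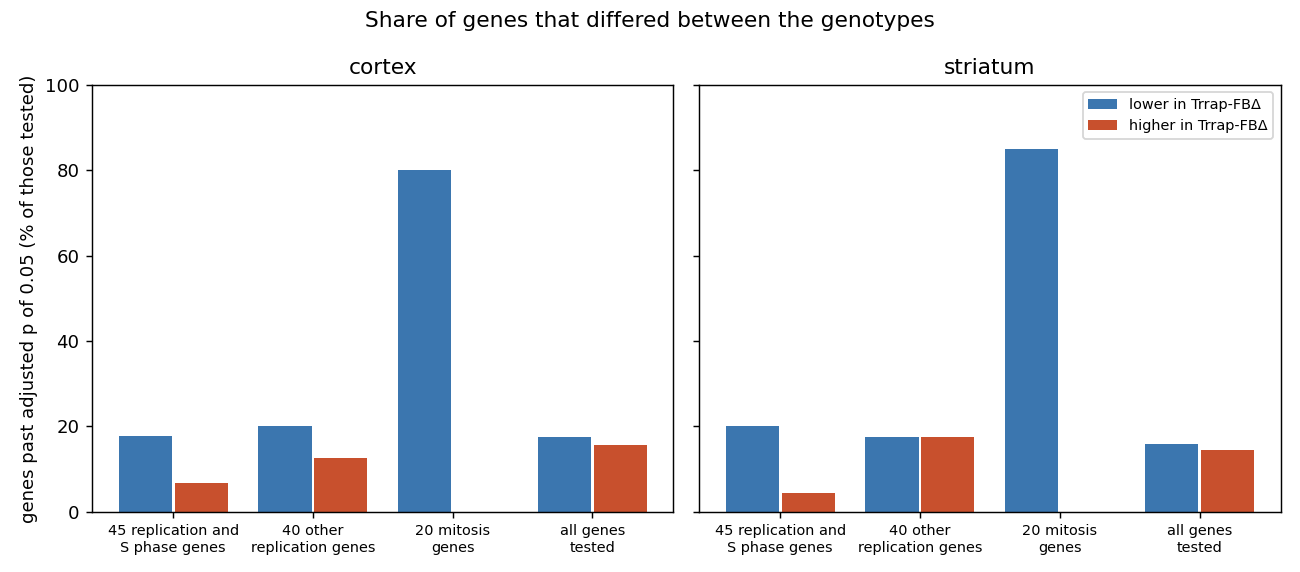
Share of genes past an adjusted p of 0.05 in Trrap-FBΔ against control cortex (left) and striatum (right), in percent of the genes tested, with genes that fell in blue and genes that rose in orange. The blue bars of the 45 replication and S phase genes and of 40 other replication genes lie near those of all genes. Of all genes 17.6% fell in cortex and 15.8% in striatum. The orange bars of the 45 genes are lower than those of all genes, with 3 and 2 of 45 beside 15.7% and 14.4%. Of the 20 mitosis genes 16 and 17 fell.

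Markers of several cell types fell as well, while those of others did not. The counts stand beside the 17.6% of all genes that fell in the cortex and the 15.8% that fell in the striatum. Of 10 oligodendrocyte precursor markers 8 fell in cortex and 4 in striatum. Their summed level was 1485 to 1712 CPM in control and 1223 to 1283 CPM in Trrap-FBΔ cortex, with 1995 to 2576 CPM and 1674 to 1925 CPM in the striatum. Of 12 microglia markers 10 and 7 fell, with sums of 446 to 505 against 327 to 406 CPM in the cortex and 358 to 446 against 310 to 326 CPM in the striatum. Of 12 endothelial and mural markers 9 and 3 fell (541 to 636 against 440 to 499 CPM, and 529 to 641 against 441 to 522 CPM), and of 10 markers of ventricular zone progenitors and neuroblasts 4 and 2 fell (557 to 739 against 458 to 539 CPM, and 452 to 550 against 390 to 419 CPM). In each of these 4 sums the control and Trrap-FBΔ libraries did not overlap. The counts of the last 2 lists in the striatum lay near the share of all genes. Of 8 pan-neuronal markers 5 and 4 fell, and their sums did not overlap either (7627 to 8210 against 5964 to 6270 CPM, and 6135 to 6659 against 4892 to 5079 CPM). This list holds Tubb3, which the study placed among its top changed Sp1 target genes. It also holds Stmn2 and Nefl, which the study placed among its top protein changes of Sp1 targets. The pan-neuronal sum is therefore not a measure of neuron number alone. Of the 10 markers of excitatory cortical neurons 2 fell in the cortex, with sums of 3616 to 4415 against 3897 to 4022 CPM. In the striatum 7 of these 10 fell, with a median log2 fold change of -0.67 and sums of 1201 to 1905 CPM in controls and 834 to 1206 CPM in Trrap-FBΔ mice, which overlapped at their edges. Of 10 mature oligodendrocyte markers 7 were called lower in the cortex and 0 in the striatum by edgeR, where 9 of 10 also had values under 0 and 0 had an unadjusted p under 0.05. Their sums overlapped in both tissues, with 1822 to 3219 against 1336 to 2069 CPM in the cortex and 3240 to 9613 against 4048 to 7084 CPM in the striatum. The test of the difference between the tissues called 0 of these 10 oligodendrocyte and 0 of the 10 excitatory markers in edgeR, with 0 and 7 at an unadjusted p under 0.05. The 10 astrocyte markers gave 2 that rose and 2 that fell in the cortex, and 2 that rose and 1 that fell in the striatum. All genes that rose made up 15.7% and 14.4%. The test called 0 of 10 striatal projection neuron markers, 0 of 8 ependymal and choroid plexus markers and 0 of 5 blood markers in either tissue. No marker of these lists was at 0 in any library. The part of these cell types in the results on replication genes was not tested. In bulk tissue, fewer cells of a dividing type and less of a transcript in each such cell cannot be told apart.

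The promoters of the 45 genes were searched for the letters that 4 kinds of regulators are known to bind, among them E2F factors and Sp1, whose targets the study followed. The sequences came from the RefSeq set for GRCm38.p6 of 300 bases per start, from 250 bases before to 50 after it. In this set 36 of the 45 genes had 43 windows. An E2F-type site, written here as TTTGGCGC or TTTCGCGC on either strand, was in 11 of the 43 windows (25.6%) and in 0.813% of all 32851 windows. The Sp1-type letters GGGCGG were in 72.1% of the windows of these genes and in 35.7% of all, the CCAAT box in 60.5% and 37.4%, and the CHR-type letters TTTGAA of late cell cycle genes in 11.6% and 17.9%. An E2F-type site was found in 2 of the 6 genes that fell in both tissues. It was in 4 of the 10 genes with a window that fell in at least 1 tissue, and in 7 of the 26 with a window that did not fall. A match is a description of letters, not of a bound factor. Other spellings of these sites were not searched, so a window without a match is not shown to lack such a site. The E2F-type sites nearest to the start are given for the 11 genes, because this motif had the largest ratio between its share in these genes and in all. Each line reads 5′ to 3′ in the strand of the gene, with the site in capitals, and sites that begin with GCGC are matches on the opposite strand.
Mcm3 (which fell in both tissues, chr1:20820263-20820285, minus strand): acttgggaagtTTTGGCGCcaag
Uhrf1 (which fell in both tissues, chr17:56304117-56304146, plus strand): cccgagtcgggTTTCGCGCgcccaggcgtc
Mcm5 (which fell in the striatum, chr8:75109349-75109378, plus strand): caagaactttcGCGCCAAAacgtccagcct
Lig1 (which fell in the cortex, chr7:13278841-13278870, plus strand): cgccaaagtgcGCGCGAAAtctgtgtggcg
Dnmt1 (which rose in the striatum, chr9:20952574-20952601, minus strand): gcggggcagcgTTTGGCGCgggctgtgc
Cdt1 (not called, chr8:122568036-122568064, plus strand): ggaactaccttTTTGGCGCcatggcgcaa
Mcm6 (not called, chr1:128359734-128359763, minus strand): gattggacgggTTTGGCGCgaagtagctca
Mcm7 (not called, chr5:138171849-138171878, minus strand): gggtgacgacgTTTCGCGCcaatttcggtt
Orc1 (not called, chr4:108579416-108579445, plus strand): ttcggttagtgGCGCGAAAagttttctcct
Pola1 (not called, chrX:93632275-93632304, minus strand): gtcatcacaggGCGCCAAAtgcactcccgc
Rfc3 (not called, chr5:151651200-151651229, minus strand): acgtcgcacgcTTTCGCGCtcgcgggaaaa

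The 6 genes called lower in both tissues, as 10.5% of all genes tested in both were, are shown next. The 150 bases just before their start are given in the strand of the gene. Whether the 6 genes vary together was not tested. Uhrf1 had 2 starts in the set, and both are given. Capitals mark the Sp1-type letters, CCAAT boxes on either strand and the CHR-type letters. The Sp1-type letters were in the 300-base windows of 5 of the 6 genes and of 20 of the 26 genes with a window that did not fall in either tissue. The CCAAT box was in 4 of the 6 and in 17 of those 26.
Cdc6 (chr11:98908001-98908150, plus strand): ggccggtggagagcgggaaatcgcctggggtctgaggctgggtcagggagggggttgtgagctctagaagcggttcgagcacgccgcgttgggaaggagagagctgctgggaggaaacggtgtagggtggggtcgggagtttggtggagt
Mcm2 (chr6:88898781-88898930, minus strand): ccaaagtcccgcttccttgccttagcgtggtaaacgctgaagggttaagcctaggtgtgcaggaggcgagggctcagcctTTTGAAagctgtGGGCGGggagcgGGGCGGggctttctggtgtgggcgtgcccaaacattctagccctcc
Mcm3 (chr1:20820313-20820462, minus strand): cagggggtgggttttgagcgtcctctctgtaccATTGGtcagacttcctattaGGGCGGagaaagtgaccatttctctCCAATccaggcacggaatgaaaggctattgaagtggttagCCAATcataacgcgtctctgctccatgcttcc
Rrm2 (chr12:24708104-24708253, plus strand): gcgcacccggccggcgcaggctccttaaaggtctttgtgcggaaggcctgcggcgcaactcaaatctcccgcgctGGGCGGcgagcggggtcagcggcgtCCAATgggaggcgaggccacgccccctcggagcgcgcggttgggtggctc
Tk1 (chr11:117826015-117826164, minus strand): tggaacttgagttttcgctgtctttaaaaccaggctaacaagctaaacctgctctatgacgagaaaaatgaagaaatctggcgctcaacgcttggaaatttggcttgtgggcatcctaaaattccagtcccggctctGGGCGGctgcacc
Uhrf1, upstream start (chr17:56303187-56303336, plus strand): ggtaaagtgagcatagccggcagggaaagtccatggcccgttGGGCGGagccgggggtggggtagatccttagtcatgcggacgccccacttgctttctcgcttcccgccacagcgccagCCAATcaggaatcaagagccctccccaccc
Uhrf1, downstream start (chr17:56304163-56304312, plus strand): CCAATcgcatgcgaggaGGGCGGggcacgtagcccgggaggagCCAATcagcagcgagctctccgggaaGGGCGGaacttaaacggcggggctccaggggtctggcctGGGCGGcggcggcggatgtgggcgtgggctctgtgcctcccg
Within these 150 bases Cdc6 held none of the 4 motifs in the spellings searched. Mcm3 held 3 CCAAT boxes and 1 Sp1-type match, and Uhrf1 held 1 and 1 at its upstream start and 2 and 3 at its downstream start. The shares of the 6 genes and of the rest of the list were not tested against each other.

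Origin licensing was represented by Orc1, Orc6, Cdc6, Cdt1 and the Cdt1 inhibitor geminin (Gmnn). Of the 5 genes only Cdc6, whose protein recruits the Mcm ring to the origin, was called. Cdc6 was at 1.57, 1.21, 1.19 and 1.40 CPM in the control cortex and at 1.04, 0.67, 0.888 and 0.813 CPM in the Trrap-FBΔ cortex. In the striatum it was at 1.61, 1.03, 1.37 and 1.14 CPM in controls and at 0.63, 0.555, 0.643 and 1 CPM in Trrap-FBΔ mice. All Trrap-FBΔ libraries lay under all control libraries of their tissue, although Trrap-FBΔ mouse 61 came close to control mouse 63 in the striatum. The fall was 0.64 ± 0.179 on the log2 scale in the cortex (edgeR adjusted p = 0.018) and 0.84 ± 0.219 in the striatum (edgeR adjusted p = 0.017), and in the striatum it was 0.77 with an adjusted p of 0.067 once sex was a covariate. The others ranged from -0.23 for Cdt1 to 0.07 for Gmnn in the cortex and from -0.38 for Orc1 to 0.08 for Cdt1 in the striatum, with adjusted p of 0.19 or more.

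The 6 subunits of the Mcm2 to Mcm7 ring all had negative log2 fold changes in both tissues, from -0.46 to -0.07 in the cortex and from -0.45 to -0.19 in the striatum, with medians of -0.28 and -0.27. The test called 2 of them in cortex (33.3%) and 4 in striatum (66.7%), all lower, beside 33.3% and 30.2% of all genes tested. All genes that fell made up 17.6% and 15.8%. Mcm2 was at 9.03, 9.56, 8.93 and 8.76 CPM in the control cortex and at 6.54, 5.89, 6.79 and 7.36 CPM in the Trrap-FBΔ cortex, a fall of 0.45 ± 0.083 on the log2 scale (edgeR adjusted p = 0.0019). In the striatum its levels of 8.35, 7.50, 8.76 and 7.57 CPM in controls and 7.12, 5.93, 6.21 and 6.98 CPM in Trrap-FBΔ mice gave a fall of 0.29 ± 0.090 (edgeR adjusted p = 0.034). The Mcm2 groups did not overlap in either tissue, with the narrowest gap between control mouse 63 and Trrap-FBΔ mouse 57 in the striatum. The striatal call was lost, with an adjusted p of up to 0.089, without control mouse 58 or 64 or without Trrap-FBΔ mouse 59 or 60. It was also lost with no filter on low counts and with sex as a covariate (edgeR adjusted p = 0.065 and 0.10).

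Mcm3, with the E2F-type site just after and the 3 CCAAT boxes before its start printed above, was at 7.93, 7.50, 7.43 and 6.54 CPM in the control cortex and at 5.78, 5.28, 3.71 and 6.51 CPM in the Trrap-FBΔ cortex, so that 1 mouse of each group nearly met. These were control mouse 64 and Trrap-FBΔ mouse 61, and mouse 60 was lowest. Its fall in the cortex was 0.46 ± 0.144 on the log2 scale (edgeR adjusted p = 0.029). The adjusted p rose to at most 0.069 without control mouse 55, 58 or 63 or without Trrap-FBΔ mouse 59 or 60. In the striatum Mcm3 was at 7.28, 7.05, 7.92 and 7.84 CPM in controls and at 5.41, 5.58, 4.98 and 6.08 CPM in Trrap-FBΔ mice. The groups were clearly apart there, with a fall of 0.45 ± 0.086 (edgeR adjusted p = 0.0039) that held without any single library.

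Mcm4 and Mcm5 were called in the striatum. Mcm4 was at 16.1, 13.4, 17.5 and 16.1 CPM in the control striatum and at 13.4, 12.4, 12.9 and 13.9 CPM in the Trrap-FBΔ striatum, where control mouse 63 lay within the Trrap-FBΔ range. Its fall was 0.26 ± 0.085 on the log2 scale (edgeR adjusted p = 0.040). The cortical levels of Mcm4, 14.6, 13.7, 12.2 and 13.9 CPM in controls and 11.2, 12.4, 11.2 and 13.0 CPM in Trrap-FBΔ mice, overlapped and gave a log2 fold change of -0.19 ± 0.077 (edgeR adjusted p = 0.083), with -0.24 and an adjusted p of 0.043 without control mouse 63. In the cortex this was the 1 of 8 fits without a library that called Mcm4, with an adjusted p of up to 0.23 in the rest. Mcm5 was at 7.87, 7.53, 9.13 and 7.05 CPM in the control striatum and at 6.6, 6.59, 6.03 and 6.68 CPM in the Trrap-FBΔ striatum, with no overlap and a fall of 0.28 ± 0.092 (edgeR adjusted p = 0.040). Of the 8 fits without a library 1 kept the striatal call of Mcm4, the one without control mouse 63. The fits without control mouse 63 or 65 kept that of Mcm5, and adjusted p was up to 0.10 and 0.11 in the rest. Both calls were also lost with no filter on low counts and with sex as a covariate, with adjusted p of up to 0.19 and 0.095, and that of Mcm5 with all 16 libraries in one fit (edgeR adjusted p = 0.074). In the cortex Mcm5 was at 8.81, 9.18, 8.80 and 9.77 CPM in controls and at 7.48, 6.2, 6.58 and 9.78 CPM in Trrap-FBΔ mice. Mouse 61 stood with the controls there, and the log2 fold change was -0.28 ± 0.126 (edgeR adjusted p = 0.11). Without mouse 61 it was -0.43 (edgeR adjusted p = 0.0065). That was 1 of 8 fits without a library, and the rest did not call it, with an adjusted p of up to 0.28. Of 5 other settings 0 called Mcm5 in the cortex. Mcm7, at -0.07 in the cortex and -0.19 in the striatum, was not called.

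Mcm6 was set apart by its spread between mice, and was singled out after its values were seen. In the control cortex it was at 13.9, 14.8, 8.41 and 9.61 CPM and in the Trrap-FBΔ cortex at 6.89, 7.51, 11.6 and 12.4 CPM. In the striatum it was at 15.8, 10.5, 11.8 and 16.9 CPM in controls and at 9.54, 8.78, 14.6 and 14.3 CPM in Trrap-FBΔ mice. The mice with low Mcm6 in the cortex, namely controls 63 and 64 and Trrap-FBΔ mice 57 and 59, were also those with low Mcm6 in the striatum. Over the 7 mice with both tissues the SD of the mouse means was 0.36 on the log2 scale, the largest of the 45 genes, while the median difference between the tissues of a mouse was 0.08, both after the mean of each group was taken out. With this spread the genotype difference of -0.28 ± 0.217 in the cortex and -0.21 ± 0.198 in the striatum (edgeR adjusted p = 0.36 and 0.45) had 95% intervals of -0.75 to 0.20 and of -0.65 to 0.23.

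**Figure D3:**
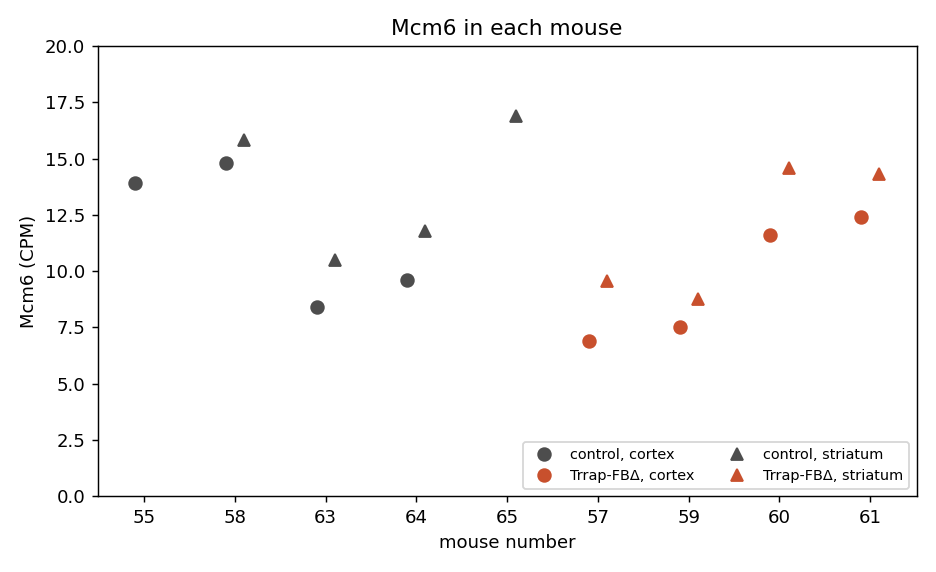
Mcm6 in CPM for each mouse (x axis, mouse number), with circles for cortex, triangles for striatum, grey for control and orange for Trrap-FBΔ mice. Low and high mice occur in both genotypes, for instance 8.41 and 10.5 CPM in control mouse 63 and 12.4 and 14.3 CPM in Trrap-FBΔ mouse 61.

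Of the genes that turn the loaded ring into a working helicase, Mcm10 was called in the striatum and none in the cortex. Mcm10, a factor needed to fire the origin, was at 2.30, 2.53, 2.24 and 2.36 CPM in the control striatum and at 1.78, 1.62, 1.51 and 1.82 CPM in the Trrap-FBΔ striatum. The groups lay far apart, with a fall of 0.49 ± 0.112 on the log2 scale (edgeR adjusted p = 0.0090) that held without any single library and with sex as a covariate. In the cortex Mcm10 was at 2.45, 2.39, 2.44 and 2.38 CPM in controls and at 2.01, 2.12, 1.8 and 2.21 CPM in Trrap-FBΔ mice. These did not overlap either, although the log2 fold change of -0.24 ± 0.114 was not called (edgeR adjusted p = 0.12). Cdc45 and the 4 GINS genes ranged from 0.01 to 0.12 in the cortex apart from Gins3 at -0.06, and from -0.42 for Gins1 to 0.17 for Gins3 in the striatum.

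Among primase and polymerases, Pole was the gene called in both tissues in the direction opposite to most. It encodes the catalytic subunit of polymerase epsilon, which copies the leading strand. Pole was at 5.19, 5.56, 5.12 and 5.09 CPM in the control cortex and at 6.14, 6.25, 6.14 and 6.13 CPM in the Trrap-FBΔ cortex, all 4 above every control. The rise was 0.23 ± 0.076 on the log2 scale (edgeR adjusted p = 0.035). It stayed called in 1 of the 8 fits without a library, the one without control mouse 58, with an adjusted p of up to 0.088 in the rest. It was lost as well in DESeq2 (adjusted p = 0.083), and in edgeR with no filter on low counts, with sex as a covariate and with all 16 libraries in one fit (adjusted p = 0.13, 0.062 and 0.051). In the striatum Pole was at 4.85, 4.76, 5.89 and 4.95 CPM in controls and at 7.12, 6.94, 5.65 and 6.86 CPM in Trrap-FBΔ mice, where control mouse 64 exceeded Trrap-FBΔ mouse 60. There it rose by 0.38 ± 0.105 (edgeR adjusted p = 0.022). The adjusted p was up to 0.065 without control mouse 58 or 65 or without Trrap-FBΔ mouse 57, 59 or 61, and 0.098 with sex as a covariate. Pola1, Pola2, Prim1, Prim2 and Pold1 were not called and ranged from -0.22 to 0.11 in the cortex and from -0.19 to 0.18 in the striatum.

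Of the 6 genes of the sliding clamp and its loader 5 had log2 fold changes above 0 in cortex and 3 in striatum. Rfc5, in the cortex, was the one that was called. Pcna, the clamp that holds polymerases on DNA and is widely used as a proliferation marker, was at 14.2, 11.4, 14.1 and 12.4 CPM in the control cortex and at 17.4, 16.4, 14.1 and 14.3 CPM in the Trrap-FBΔ cortex. Its log2 fold change was 0.26 ± 0.095 (edgeR adjusted p = 0.056), with a 95% interval of 0.05 to 0.47 that holds no fall. This value was called in DESeq2 (adjusted p = 0.045), and in edgeR with no filter on low counts (adjusted p = 0.042) and without control mouse 55 or 63 or without Trrap-FBΔ mouse 60 or 61 (adjusted p from 0.041). These were 4 of the 8 fits without a library and 2 of 5 other settings. The rest did not call it, with an edgeR adjusted p of up to 0.16 and 0.078. In the striatum Pcna was at 10.4, 13.8, 12.4 and 10.6 CPM in controls and at 14.1, 14.1, 12.5 and 11.9 CPM in Trrap-FBΔ mice. These overlapped, with a log2 fold change of 0.15 ± 0.103 (95% interval -0.08 to 0.38, edgeR adjusted p = 0.30). The 5 subunits of the clamp loader ranged from -0.02 to 0.28 in the cortex and from -0.18 to 0.14 in the striatum.

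Rfc5, a small subunit of the clamp loader, rose in the cortex. It was at 12.3, 11.4, 13.9 and 12.8 CPM in the control cortex and at 16.2, 15.1, 14.2 and 15.8 CPM in the Trrap-FBΔ cortex, with no overlap. The rise of 0.28 ± 0.076 on the log2 scale (edgeR adjusted p = 0.014) held without any single library. In the striatum its levels of 8.82, 11.6, 12.2 and 10.4 CPM in controls enclosed the 10.5, 10.7, 11.4 and 10.4 CPM of the Trrap-FBΔ mice, with a log2 fold change of -0.003 ± 0.098. Rpa1, the large subunit of the single-strand binding protein RPA, which serves repair as well as replication, also rose in the cortex. It was at 45.6, 48.8, 42.7 and 49.3 CPM in controls and at 52.8, 52.6, 53.2 and 55.1 CPM in Trrap-FBΔ mice, with no overlap and a rise of 0.20 ± 0.053 (edgeR adjusted p = 0.016). In the striatum Rpa1 was at 48.3, 45, 47.8 and 48.9 CPM in controls and at 54.8, 49, 54.2 and 50 CPM in Trrap-FBΔ mice, with a log2 fold change of 0.13 ± 0.053 (edgeR adjusted p = 0.087). The other 2 RPA subunits, Rpa2 and Rpa3, were at -0.17 and -0.05 in the cortex and at -0.11 and -0.06 in the striatum.

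Lig1, the ligase that seals the fragments of the lagging strand, fell in the cortex. Its levels were 24.9, 19.9, 19.3 and 22.5 CPM in the control cortex and 17.6, 16.7, 16.4 and 18.2 CPM in the Trrap-FBΔ cortex. All Trrap-FBΔ mice were under the lowest control, with a fall of 0.33 ± 0.083 on the log2 scale (edgeR adjusted p = 0.011) that held without any single library. In the striatum Lig1 was at 32.9, 25.1, 27.3 and 32.8 CPM in controls and at 25.0, 25.4, 20.4 and 29 CPM in Trrap-FBΔ mice, which overlapped, with a log2 fold change of -0.24 ± 0.117 (edgeR adjusted p = 0.14). Fen1, the nuclease that trims the same fragments, had log2 fold changes of -0.10 in cortex and 0.10 in striatum, neither of them called.

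The smallest edgeR adjusted p-value of the 45 in each tissue was that of Rrm2, a gene of nucleotide supply. Rrm2, the S phase subunit of ribonucleotide reductase, was at 7.86, 7.17, 6.91 and 7.18 CPM in the control cortex and at 4.89, 4.36, 4.73 and 4.88 CPM in the Trrap-FBΔ cortex. In the striatum it was at 6.08, 6.64, 8.31 and 5.80 CPM in controls and at 4.37, 4.11, 3.52 and 3.94 CPM in Trrap-FBΔ mice. The groups were wide apart in both tissues, with a cortical fall of 0.62 ± 0.082 on the log2 scale (edgeR adjusted p = 0.00026) and a striatal fall of 0.75 ± 0.126 (edgeR adjusted p = 0.0019), or 0.649 and 0.594 times the control. Both calls held without any single library and in all other settings tried. Its partner subunit Rrm1, which is not limited to S phase, was at -0.09 ± 0.058 and -0.04 ± 0.060, with 95% intervals of -0.21 to 0.04 and -0.17 to 0.10.

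Tk1, the thymidine kinase of S phase, was at 1.83, 1.59, 1.38 and 1.45 CPM in the control cortex and at 1.11, 0.754, 1.02 and 1.31 CPM in the Trrap-FBΔ cortex, a fall of 0.55 ± 0.183 on the log2 scale (edgeR adjusted p = 0.038). The 2 groups came close between control mouse 63 and Trrap-FBΔ mouse 61. The adjusted p was up to 0.095 without any one of control mice 55, 58 and 64 or Trrap-FBΔ mice 57, 59 and 60. The cortical call was also lost in DESeq2 (adjusted p = 0.052) and in edgeR with sex as a covariate (adjusted p = 0.054). In the striatum Tk1 was at 1.76, 2.25, 2.21 and 1.45 CPM in controls and at 1.13, 1.11, 1.13 and 1.37 CPM in Trrap-FBΔ mice. The fall of 0.69 ± 0.166 (edgeR adjusted p = 0.011) held without any single library. Dut was at 30.5, 28.5, 29.3 and 28.7 CPM in the control cortex and at 27.3, 24.4, 25.7 and 23.4 CPM in the Trrap-FBΔ cortex, with no overlap. Its fall was 0.22 ± 0.062 (edgeR adjusted p = 0.021), and the adjusted p was up to 0.059 without Trrap-FBΔ mouse 59 or 61. In the striatum Dut was at 27.2, 32.4, 28.6 and 29.5 CPM in controls and at 28.6, 28.3, 29.3 and 26.7 CPM in Trrap-FBΔ mice, with a log2 fold change of -0.06 ± 0.063. The thymidylate synthase gene Tyms was at 0.01 and -0.09 and was not called in either tissue.

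Uhrf1 and Dnmt1, which copy DNA methylation onto the new strand and whose proteins work together, differed in their values. Uhrf1, which reads hemimethylated DNA and has an E2F-type site and several Sp1-type matches before its downstream start, was at 4.86, 4.78, 3.92 and 3.46 CPM in the control cortex and at 3, 2.68, 2.82 and 3.27 CPM in the Trrap-FBΔ cortex. In the striatum it was at 5.42, 4.90, 6.18 and 4.34 CPM in controls and at 3.28, 3.26, 3.36 and 3.70 CPM in Trrap-FBΔ mice. No Trrap-FBΔ library reached a control in either tissue. In the cortex Uhrf1 fell by 0.53 ± 0.131 on the log2 scale (edgeR adjusted p = 0.010) and in the striatum by 0.61 ± 0.118 (edgeR adjusted p = 0.0039), and both calls held without any single library and in all other settings tried. Dnmt1, the methyltransferase itself, is also expressed in neurons that do not divide. It was at 87.5, 87.4, 71.8 and 85.2 CPM in the control cortex and at 69.1, 84.0, 81.3 and 91.4 CPM in the Trrap-FBΔ cortex, with a log2 fold change of -0.03 ± 0.085. In the striatum it was at 84.8, 66.0, 81.8 and 83.1 CPM in controls and at 100, 90.6, 88.2 and 97.3 CPM in Trrap-FBΔ mice. The latter lay above every control, a rise of 0.25 ± 0.079 (edgeR adjusted p = 0.034). Control mouse 63 was low in both tissues, and without it the striatal rise was 0.18 (edgeR adjusted p = 0.029). The adjusted p was up to 0.096 without Trrap-FBΔ mouse 57, 59 or 61. The chromatin assembly genes Chaf1a and Chaf1b were at -0.12 and -0.05 in the cortex and at -0.07 and -0.06 in the striatum. The cyclin E genes Ccne1 and Ccne2, which drive entry into S phase, were at -0.08 and 0.01 and at -0.17 and 0.04.

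**Figure D4:**
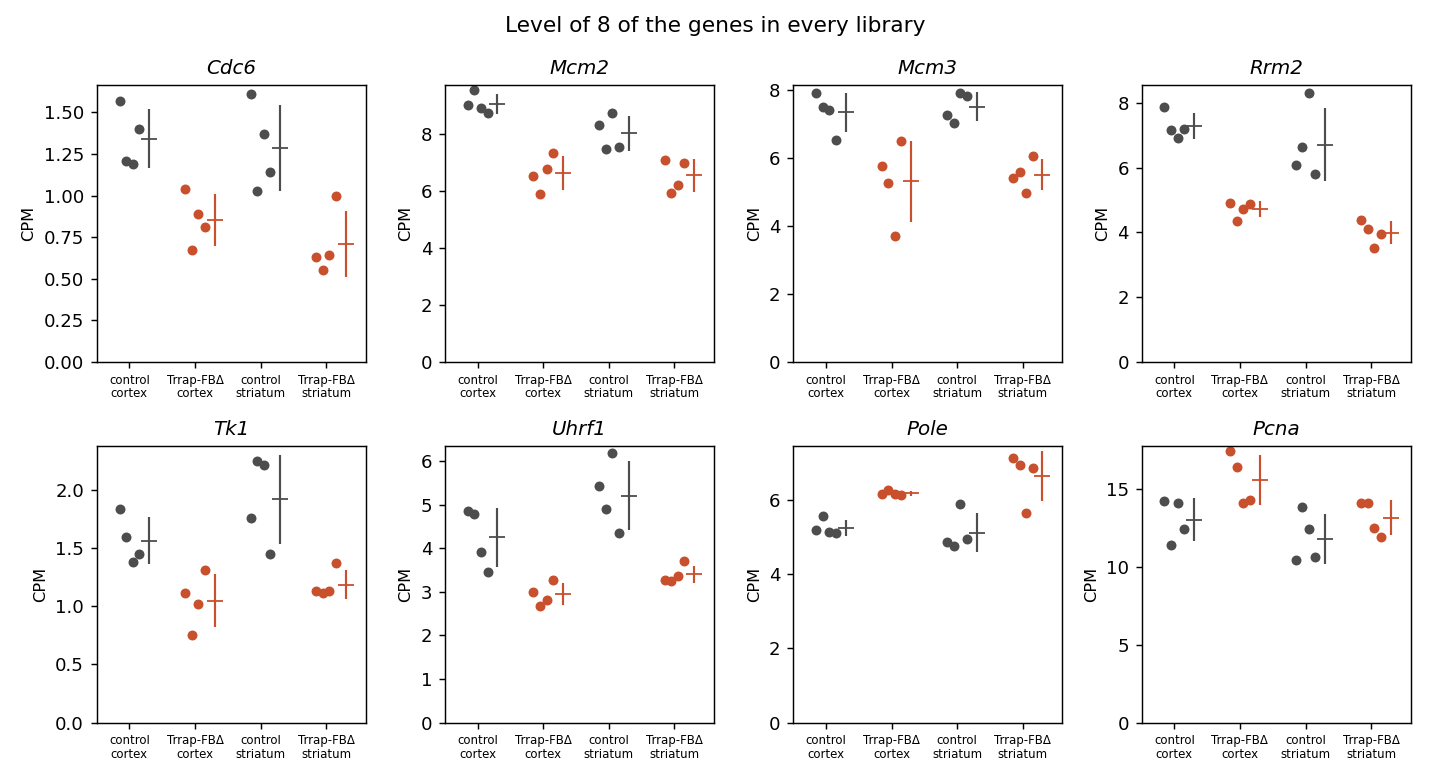
Level in CPM (y axis, from 0) of 8 of the genes in every library, with points for single mice, and a horizontal mark and bar for the mean and SD of each group of 4. Cdc6, Mcm2, Mcm3, Rrm2, Tk1 and Uhrf1 are lower in Trrap-FBΔ mice in both tissues. Pole is higher in 4 of 4 Trrap-FBΔ mice than in any control in the cortex, and the Pcna groups overlap in both tissues.

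In all, 6 genes fell in both tissues, namely Cdc6, Mcm2, Mcm3, Rrm2, Tk1 and Uhrf1, beside 10.5% of the 17938 genes tested in both. Of these, Rrm2 and Uhrf1 kept both calls in every other setting and without any single library, whereas Cdc6, Mcm2, Mcm3 and Tk1 lost the call of 1 tissue in some of them. Pole was called higher in both by the edgeR test, although its cortical call was kept in 1 of 5 other settings (adjusted p of up to 0.13) and its striatal call in 4 of 5. In total 15 genes were called in at least 1 tissue, and 30 in neither. The matching shares of all genes were not worked out, so these counts cannot be set against a background. For a single tissue, 33.3% (cortex) and 30.2% (striatum) of all genes tested were called. The Trrap-FBΔ mice and 3 of the control mice were the same in the 2 tissues, so that these are not independent samples. For the genes not called, 31 of 34 in cortex and 30 of 34 in striatum had a 95% interval of the log2 fold change within 0.5 on either side of 0. In 10 and 8 of them it lay within 0.25. The intervals that reached further belonged to Cdt1, Mcm5 and Mcm6 in the cortex and to Orc1, Mcm6, Gins1 and Lig1 in the striatum.

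No gene of the 45 was called for a difference of the genotype effect between the tissues, tested as an interaction over all 16 libraries, where 0.437% of 19438 genes were called by edgeR. Of the 45 genes 2 had an unadjusted p under 0.05 in edgeR, and DESeq2 called 0 of them as well, with 2 at that unadjusted p. The smallest p was that of Rfc5, with a difference of striatal minus cortical log2 fold change of -0.29 ± 0.124 (edgeR adjusted p = 0.35). Next came Dnmt1 with 0.28 ± 0.127 (edgeR adjusted p = 0.39) and Dut with 0.16 ± 0.085 (edgeR adjusted p = 0.49). Their 95% intervals, of -0.55 to -0.03, 0.01 to 0.55 and -0.02 to 0.34, leave room for effects that differ between the tissues, so the calls in a single tissue above are not shown to belong to that tissue. With the mouse as a block, since 7 mice gave both tissues, 0 genes were called too.

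**Figure D5:**
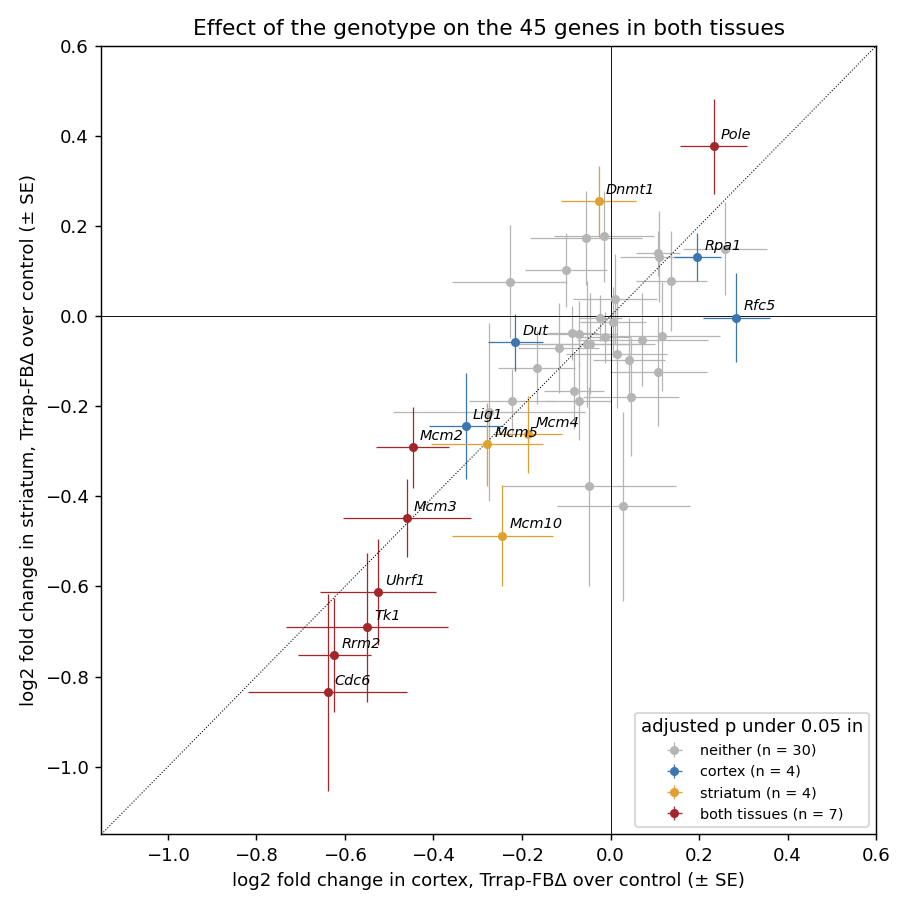
Log2 fold change of Trrap-FBΔ over control in the striatum (y axis) against the cortex (x axis) for the 45 genes, with bars of 1 SE and colours by the tissue in which a gene was called. The 6 genes that fell in both tissues lie at the lower left, down to -0.64 and -0.84 for Cdc6, Pole lies at the upper right, and the 30 genes called in neither tissue surround 0. The dotted line marks equal effects.

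Between the 2 tissues of the control mice, the log2 differences of the 45 genes, striatum over cortex, ranged from -0.27 to 0.50. Of the 45 genes 7 had an unadjusted edgeR p under 0.05, beside 8837 of 18284 genes tested. Between control striatum and control cortex 3 of 45 genes were called, all higher in the striatum, beside 40.4% of 18284 genes. Ccne2 was at 7.06, 6.88, 7.58 and 6.25 CPM in the cortex and at 8.03, 11, 9.23 and 10.8 CPM in the striatum, higher by 0.50 ± 0.111 on the log2 scale (edgeR adjusted p = 0.0048). Lig1 was higher by 0.45 ± 0.112 (edgeR adjusted p = 0.0085) and Tyms by 0.31 ± 0.111 (edgeR adjusted p = 0.046). Tyms stayed called in 1 of the 8 fits without a library, the one without the striatum of control mouse 65, with an adjusted p of up to 0.13 in the rest, and its call was also lost in DESeq2, with no filter on low counts and with the mouse as a block, with adjusted p of up to 0.099. The block left 2 genes called. With all 16 libraries in one fit 8 genes were called, and 5 with sex as a covariate.

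A further 40 genes of replication, fixed as a list beside the 45, had 13 called in the cortex (32.5%, 5 higher and 8 lower) and 14 in the striatum (35.0%, 7 higher and 7 lower), near the 33.3% and 30.2% of all genes. The histone chaperone gene Nasp fell by 0.49 ± 0.064 on the log2 scale in cortex and by 0.37 ± 0.049 in striatum (edgeR adjusted p = 0.00024 and 0.00059). The S phase and G2 cyclin gene Ccna2 fell by 0.48 and 0.44 (edgeR adjusted p = 0.00089 and 0.0012). Dbf4, the partner of the Cdc7 kinase that triggers origin firing, fell by 0.45 and 0.47 (edgeR adjusted p = 0.0070 and 0.0066). Rnaseh2c, a subunit of the RNase that removes RNA from DNA, fell by 0.52 and 0.63 (edgeR adjusted p = 0.0070 and 0.00081). Orc3, a subunit of the origin recognition complex that is also expressed in neurons, rose by 0.46 ± 0.051 and 0.27 ± 0.061 (edgeR adjusted p = 8.9e-05 and 0.0090). Genes of the same machinery thus moved in both directions in this list as well.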

How the data were processed

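RNA from whole cortex and striatum was made into stranded, poly(A)-selected mRNA libraries and sequenced as single reads. Per the submitters' processing notes and methods, the authors used bcl2fastq 1.8.4, aligned with STAR 2.5.4b to GRCm38, and counted uniquely mapped reads per Ensembl gene in strand-specific mode with featureCounts 1.5.0. The deposited values are these raw counts, neither normalized nor filtered. Unique mapping can lower counts of genes with near-identical copies, and Pcna and Tyms have processed pseudogenes in the annotation. Symbols came from GENCODE M21 (GRCm38) for 53706 of 53801 identifiers, and levels per kb use the summed exon length of a gene.

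In R 4.3.3, edgeR 4.0.16 (TMM, filterByExpr, quasi-likelihood test, Benjamini-Hochberg over all genes tested, threshold 0.05) compared Trrap-FBΔ with control in the 8 libraries of each tissue, as in the study, which used DESeq2, and control striatum with control cortex. The interaction was fitted over 16 libraries. Intervals of 95% are of single genes and unadjusted. The fits were checked on simulated counts. Alternatives were DESeq2 1.42.0, DESeq2's size factors in edgeR, no filter other than 1 count, sex as a covariate, 1 fit over all libraries, the mouse as a block, and each library left out. Same-numbered libraries were taken as 1 mouse from their labels. Their deviations from the group means correlated at 0.0845 to 0.244 in 7 pairs. Between different mice the correlations were -0.173 to 0.123 in 25 pairs, with a median of -0.0851, so that the ranges overlapped. Taking out the group means also lowers the values between mice. No 2 libraries of a group agreed within sampling noise (chi-square over degrees of freedom of at least 8.26). Motifs were searched in RefSeq promoters with Python 3.11.15.

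The 45 genes and all lists were chosen with earlier results of these data known, and no list was tested as a set. Values per library are given for Trrap, the 12 genes of the 45 with the smallest geometric mean p of both tissues, Pcna, genes called against the majority of their tissue, and the 3 with the smallest interaction p. Of each other list up to 5 genes by the same measure are named. Values of Mcm6, and those of Ccne2 between the control tissues, were added after they were seen.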

Additional observations from a re-analysis of the deposited data

Results flagged for a closer look

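In 180 groups of 4 libraries (45 genes in 4 groups), 15 single libraries lay far from the other 3, where chance alone gives about 9. Dnmt1 was low in control mouse 63 in both tissues, at 71.8 CPM in the cortex beside 85.2 to 87.5 CPM in the others and at 66.0 CPM in the striatum beside 81.8 to 84.8 CPM. The same mouse had a low Gins3 in the cortex, at 2.44 CPM beside 3.11 to 3.20 CPM, and a high Gins2 (2.49 CPM beside 2.08 to 2.10 CPM) and Rfc2 (47.5 CPM beside 42.3 to 43.1 CPM) in the striatum. In the striatum of Trrap-FBΔ mouse 60, Orc6 was high at 34.6 CPM beside 31.8 to 32.1 CPM, whereas Mcm5 (6.03 CPM beside 6.59 to 6.68 CPM) and Rrm1 (27.6 CPM beside 29.4 to 29.7 CPM) were low. Among genes called above, Pole was at 6.25 CPM in the cortex of Trrap-FBΔ mouse 59 beside 6.13 to 6.14 CPM, a small gap in a narrow group, and Tk1 was at 1.37 CPM in the striatum of Trrap-FBΔ mouse 61 beside 1.11 to 1.13 CPM. Prim1 was high in the cortex of control mouse 55, at 11.4 CPM beside 8.12 to 8.66 CPM, and of Trrap-FBΔ mouse 57, at 9.98 CPM beside 8.59 to 8.65 CPM. In the control striatum Pola1 was at 7.94 CPM in mouse 58 beside 8.92 to 9.05 CPM and Rpa2 at 9.05 CPM in mouse 65 beside 10.9 to 11.2 CPM. Chaf1b was at 1.85 CPM in the striatum of Trrap-FBΔ mouse 57 beside 1.61 to 1.65 CPM.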

How the results depend on the processing

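No log2 fold change of a named gene turned its direction past the threshold. Over the named genes and their alternatives, 348 values kept their side of the threshold, 60 lost their call and 8 gained one. The number of genes called was 7 to 11 in the cortex and 6 to 12 in the striatum when single libraries were left out. In the other settings it was 9 to 11 in the cortex, and in the striatum it was 8 to 11, apart from 6 with sex as a covariate. The cause was not tested. Between the control tissues 5 genes were called with sex as a covariate and 8 with all 16 libraries in one fit, which shares the spread of all groups, and 2 to 4 when libraries were left out. With the mouse as a block, 2 genes were called between the control tissues and 0 for the difference between tissues, and the block changed no other call than that of Tyms. DESeq2's size factors moved the median of all genes by at most 0.0041 on the log2 scale. Within 100 bases before the start, the E2F-type share was 6.98% and the CHR-type share 4.65% of the windows of these genes, where fewer bases were searched, beside 0.289% and 5.77% of all windows. The largest SE of the 45 genes was that of Orc1 in the striatum, at 0.22 with counts from 16, and that of Mcm6 in the cortex, at 0.217 with counts from 269, so that low counts were not the only setting of low precision.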

Other observations

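Of the 11 E2F factors and pocket proteins, which control the onset of transcription of many S phase genes, 5 were called in the cortex, with 4 lower and 1 higher, and 3 in the striatum, all lower. These are 45.5% and 27.3% of the list, beside 33.3% and 30.2% of all genes tested. E2f7 and E2f8, repressors of the family that are themselves made in S phase, were at 2.88 and 2.92 CPM on average in the control cortex. E2f8 fell by 0.67 ± 0.127 on the log2 scale in the cortex and by 0.50 ± 0.120 in the striatum (edgeR adjusted p = 0.0022 and 0.012), and E2f7 fell by 0.69 ± 0.109 in the cortex (edgeR adjusted p = 0.00076), with a value of -0.33 ± 0.133 in the striatum (edgeR adjusted p = 0.082). The activator E2f3 fell by 0.29 ± 0.059 and 0.34 ± 0.053 (edgeR adjusted p = 0.0037 and 0.0013). The pocket protein gene Rbl1 (p107) fell by 0.51 ± 0.107 in the cortex (edgeR adjusted p = 0.0041) and was at -0.19 ± 0.071 in the striatum (edgeR adjusted p = 0.063), and Rb1 was not called in either tissue, at -0.10 ± 0.051 and -0.13 ± 0.049.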
